A study of Mus musculus with 6 samples.

Results

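Nuclear receptors are transcription factors that are switched by small lipid-soluble ligands, and they act with coactivators and corepressors that open or close chromatin. The genes described here are 38 members of these families, 34 receptors and 4 cofactors. They were chosen by gene symbol from a list, leaving out the Rev-erb pair of the circadian clock, and all 38 were found among the 54532 genes of the deposited table. Most of the receptors bind DNA as dimers, and many of those that sense fatty acids, bile acids, oxysterols or drugs need a retinoid X receptor as partner. In the liver they set the rates of fatty acid oxidation, bile acid synthesis, lipoprotein output and drug metabolism.

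RNA from mouse liver was sequenced in 6 libraries from 2 groups. The HKO group (3 libraries) lacked G3bp1 in hepatocytes, and the Flox group (3 libraries) were litter controls. All mice started a high-fat diet at 6 weeks of age and ate it for 12 weeks. The study asked how G3BP1, an RNA-binding protein of stress granules, affects steatohepatitis, the inflamed form of fatty liver disease. The sources used here do not name the Cre line, the deleted exons or the strain, and a hepatocyte knockout leaves the gene in place in other liver cells. The labels do not say that each library came from its own mouse, so the p-values speak only of the spread among these samples, possibly a technical one.

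The libraries held 15804115 to 17954066 assigned reads each. G3bp1 stood at 8.46, 8.46 and 9.10 FPKM in Flox 1 to 3 and at 4.66, 4.27 and 4.44 FPKM in HKO 1 to 3, so each library matched its label. FPKM are reads scaled by gene length and by a size for each library, so that levels can be compared between genes. That size was not the count of assigned reads. It stood at 0.972, 0.934 and 1.03 times that count in Flox 1 to 3 and at 1.06, 1.01 and 1.03 times in HKO 1 to 3. It moved in proportion to the median, over genes, of each library's reads relative to their mean over the libraries. The 10 hepatocyte markers summed to 49778.5 to 51459 FPKM in Flox and 43222 to 53058 FPKM in HKO, lowest in HKO 1. The 15 macrophage markers summed to 205 to 344 FPKM in Flox and 288 to 448 FPKM in HKO. All 15 macrophage markers had a higher mean in HKO and 0 passed over all genes in limma. Endothelial markers summed to 49.2 to 69.7 FPKM in Flox and 53.0 to 71.7 FPKM in HKO, and stellate cell and fibroblast markers to 58.1 to 72.8 FPKM in Flox and 59.5 to 73.7 FPKM in HKO. In whole liver, fewer cells of a type and less RNA per cell cannot be told apart.

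None of the receptors or cofactors passed the test between HKO and Flox. Of the 38 members, 32 had at least 0.5 FPKM in at least 3 libraries and were tested, and 0 of these 32 passed at an adjusted p of 0.05 in limma, against 0.00843% of all 11856 genes tested (1 gene, lower in HKO). Limma's voom on recovered reads also gave 0 members. At an unadjusted p under 0.05 there was 1 member, Rxra, higher in HKO, or 3.12% of those tested against 7.62% of all genes (3.08% higher and 4.55% lower). Libraries of the groups did not overlap in 3 members (Rxra and Hnf4a above, Rarg below), or 9.38% against 13.3% of all genes (6.06% above and 7.21% below). Of the 32 members 14 had a higher and 18 a lower mean in HKO, with a median log2 fold change of -0.02, against -0.01 over all genes, of which 48.8% were higher and 51.2% lower. That split moved with the scaling. Under TPM, which rescales each library to the same FPKM sum, 23 of the 32 were higher, where 74.5% of all genes were higher. When scaled by assigned reads 21 were higher, where 60.9% of all genes were. The FPKM sums were 494433, 491399 and 431497 in Flox 1 to 3 and 414411, 422735 and 412344 in HKO 1 to 3. Each HKO sum lay below each Flox sum, so TPM raised HKO levels relative to Flox. Over both directions, the shares at an unadjusted p under 0.05 and without overlap lay under the background of all genes, and the shares of higher members lay near it. A missed threshold does not show that levels were equal. The smallest adjusted p among the members was 0.648 in limma.

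The receptors best known from hepatocytes had the highest levels. Hnf4a, the receptor that keeps hepatocyte identity, was highest at a mean of 117 FPKM over the 6 libraries. It was followed by Rxra at 92.9 FPKM, the main retinoid X receptor of the liver, and by Nr0b2 at 74.7 FPKM. Nr0b2 encodes SHP, an atypical receptor with no DNA-binding domain that represses bile acid synthesis. The oxysterol receptor gene Nr1h3 (LXRalpha) and the bile acid receptor gene Nr1h4 (FXR) came next at 49.1 and 48.9 FPKM. These 5 genes made up 63.7% to 67.9% of the summed FPKM of all 38 members in each library, and that sum lay between 554 and 616 FPKM.

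Neighbours in this order were often not separable. In 8 of the 37 neighbouring pairs the order held in all 6 libraries, and in 9 the gap between means was larger than the SD of both genes over the 6 libraries. Hnf4a lay above Rxra, Nr1h4 above Nr2f6, Nr2f6 above Nr1i2 and Ppara above Esrra in every library. Nr1h3 and Nr1h4, and likewise Nr3c1 and Nr5a2 at 12.8 FPKM each, could not be ranked. The 6 members not tested stood at means of 0.470 FPKM (Nr2c2), 0.252 (Nr4a2), 0.140 (Rarb), 0.117 (Nr2f1), 0.0600 (Hnf4g) and 0.00899 (Vdr). Vdr, the vitamin D receptor, had 0, 2 and 0 reads in Flox 1 to 3 and 1 read in each HKO library, too few to detect a difference.

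**Figure D1:**
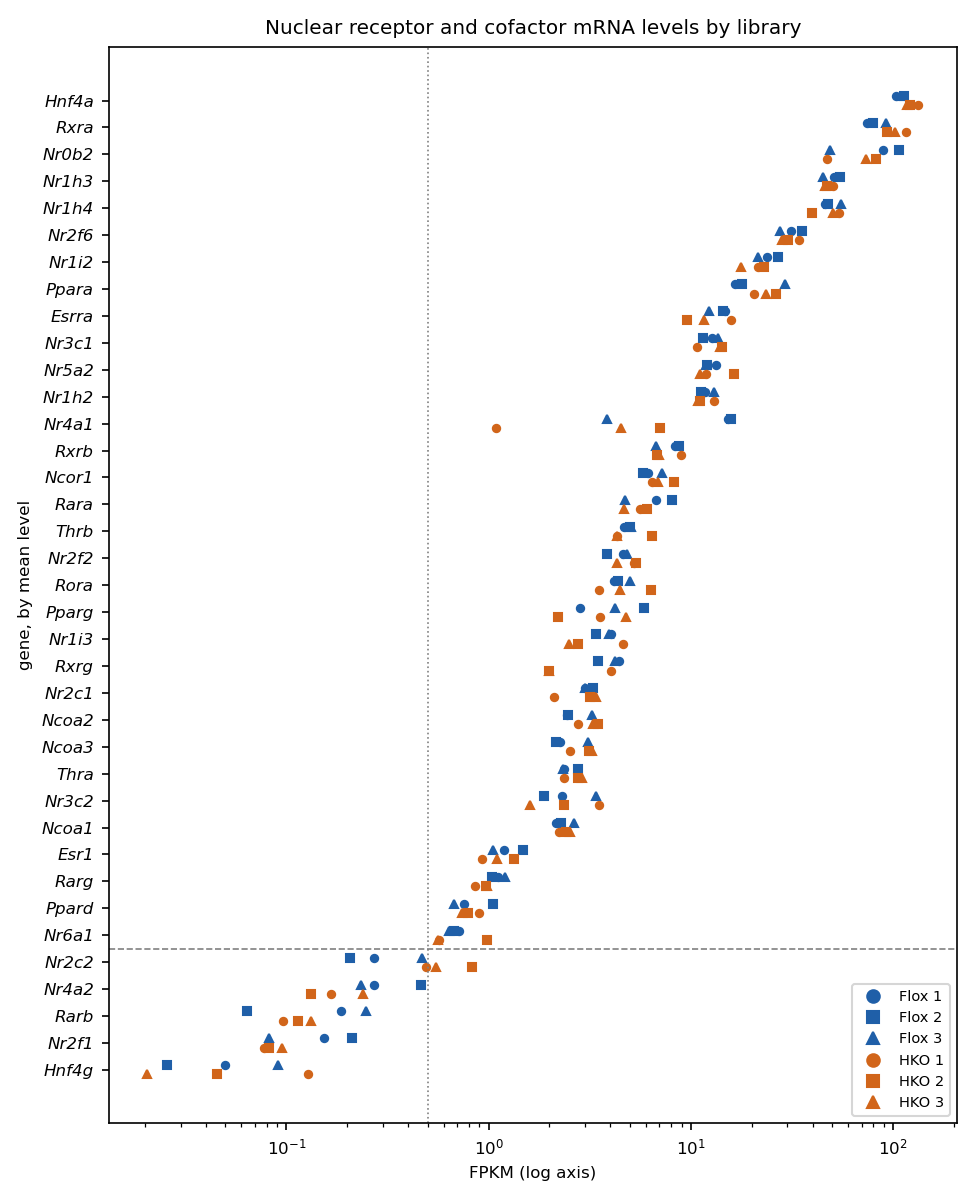
FPKM (log axis) of 37 members in each of the 6 libraries, ordered by mean level, with Flox in blue and HKO in orange and Vdr left out because it was at 0 in 2 libraries. Genes under the dashed line did not pass the filter of 0.5 FPKM (dotted line) in 3 libraries; Hnf4a and Rxra are the highest and Nr4a1 has the widest spread.

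Among the retinoid receptors, Rxra had the largest positive log2 difference of the 32 tested members. Rxra (ENSMUSG00000015846, chromosome 2, 27676440 to 27762957 on the plus strand, GRCm38) stood at 74.0, 79.98 and 92.0 FPKM in Flox 1 to 3 and at 116, 93.3 and 102 FPKM in HKO 1 to 3. Every HKO library lay above every Flox library, but HKO 2 and Flox 3 were nearly level. The means were 82.0 ± 9.18 FPKM in Flox and 104 ± 11.4 FPKM in HKO (SD, n = 3), or 26.6% higher. On the log2 scale the difference was 0.34 (SE 0.137), at a limma adjusted p of 0.648, which ranged from 0.272 to 0.989 over the alternative settings. HKO 1, the highest in Rxra, also had the highest macrophage marker sum (448 FPKM), and Flox 1, the lowest, had the lowest (205 FPKM). The part of macrophages in the Rxra difference was not tested. When each library was scaled by its assigned reads the groups overlapped.

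Rxrg, a retinoid X receptor known mainly from muscle and brain, lay at the other end. It stood at 4.42, 3.46 and 4.20 FPKM in Flox 1 to 3 (156, 118 and 162 reads) and at 4.05, 1.98 and 1.996 FPKM in HKO 1 to 3 (165, 76 and 85 reads). HKO 2 and HKO 3 were low, while HKO 1 lay within the Flox range. The log2 fold change was -0.49 (SE 0.216, limma adjusted p = 0.656), and -0.74 without HKO 1 (limma adjusted p = 0.205). Rxrb, the broadly expressed paralog, stood at 7.95 ± 1.06 FPKM in Flox and 7.58 ± 1.17 FPKM in HKO.

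The make-up of the retinoid X receptor mRNA differed between libraries. Rxrg made up 5.09%, 3.75% and 4.08% of the summed FPKM of Rxra, Rxrb and Rxrg in Flox 1 to 3 and 3.14%, 1.94% and 1.80% in HKO 1 to 3. Rxra made up 85.2%, 86.8% and 89.4% in Flox 1 to 3 and 89.9%, 91.4% and 91.9% in HKO 1 to 3. Neither share overlapped between the groups, but both are parts of the same sum, and Rxra itself did not overlap. The share of Rxrb overlapped. The share of Ncoa2 in the sum of Ncoa1, Ncoa2 and Ncoa3 did not, at up to 36.22% in Flox and from 36.23% in HKO. These shares were chosen after the values were seen and were not tested.

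The retinoic acid receptors, which turn on genes when they bind all-trans retinoic acid, were lower in level. Rara, the main form in these livers, stood at 6.74, 8.11 and 4.74 FPKM in Flox 1 to 3 and at 5.61, 6.11 and 4.67 FPKM in HKO 1 to 3. Flox 3 was nearly as low as HKO 3, and the groups overlapped (log2 fold change -0.20, SE 0.182, limma adjusted p = 0.755). Rarg stood at 1.11, 1.04 and 1.20 FPKM in Flox 1 to 3 and at 0.860, 0.970 and 0.987 FPKM in HKO 1 to 3. All HKO libraries lay below all Flox libraries, on 65 to 86 reads each (log2 fold change -0.13, SE 0.0901, limma adjusted p = 0.719). The groups overlapped under TPM (-0.053) and when scaled by assigned reads (-0.090). Rarb, itself a target of retinoic acid, had 5 to 22 reads per library, and 34.1% of its exon bases overlap those of Top2b on the other strand.

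**Figure D2:**
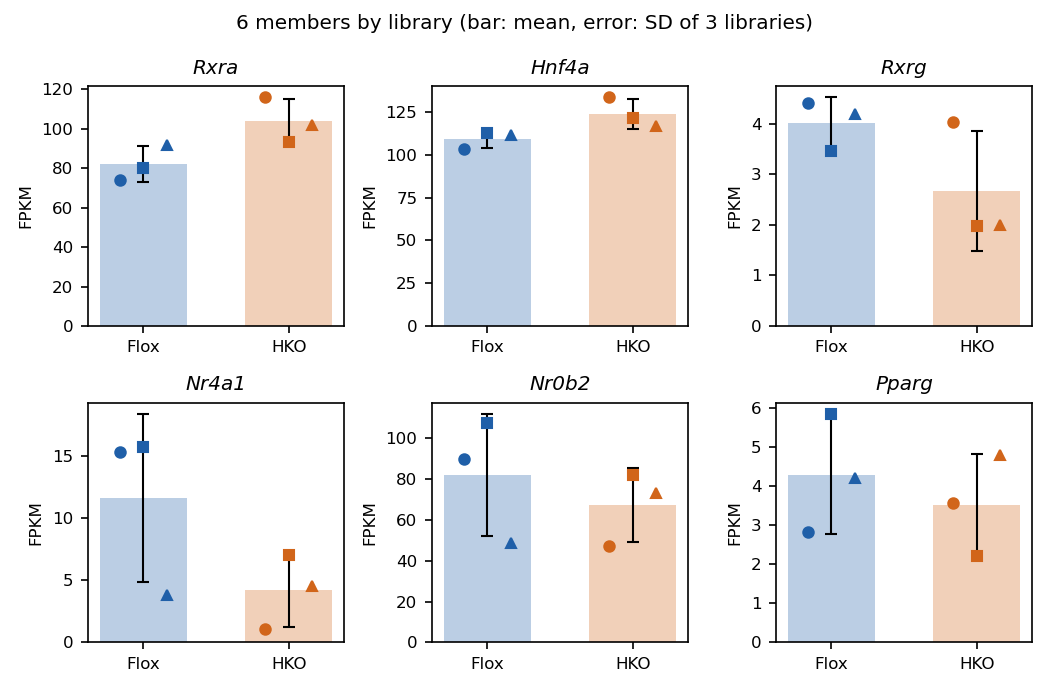
FPKM of Rxra, Hnf4a, Rxrg, Nr4a1, Nr0b2 and Pparg in each library (circle, square and triangle for replicates 1, 2 and 3), with bars for group means and lines for the SD of 3 libraries. The groups do not overlap for Rxra and Hnf4a and overlap for the other 4 genes, with Nr4a1 ranging from 1.09 to 15.7 FPKM.

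The fatty acid receptors of the PPAR group did not differ beyond their spread. Ppara, which turns on fatty acid oxidation during fasting, stood at 16.5, 17.9 and 29.2 FPKM in Flox 1 to 3 and at 20.4, 26.3 and 23.5 FPKM in HKO 1 to 3. Flox 3 was the highest of all 6 libraries, and the log2 fold change was 0.17 (SE 0.217, limma adjusted p = 0.819). Without Flox 3 it was 0.41 and the groups did not overlap (limma adjusted p = 0.272). In that setting 12 of the 32 members and 37.1% of all genes did not overlap. Pparg, which drives lipid storage in fat cells and in fatty liver, stood at 2.84, 5.86 and 4.21 FPKM in Flox 1 to 3 and at 3.57, 2.21 and 4.80 FPKM in HKO 1 to 3. Its level varied 2.65-fold between libraries without regard to group. The highest value came from Flox 2, where the adipocyte gene Cfd also stood highest, at 18.6 FPKM against 0.390 to 6.05 FPKM in the other 5 libraries. In HKO 3, with Pparg at 4.80 FPKM, Cfd stood at 1.87 FPKM. Adipoq, the defining fat cell gene, was at 0 in all 6 libraries. The part of fat cells in the Pparg level was not tested. Ppard, the broadly expressed PPAR, stood at 0.825 ± 0.198 FPKM in Flox and 0.807 ± 0.0783 FPKM in HKO.

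Most targets of PPARalpha had lower means in HKO, while the mean of Ppara was not lower. Of 31 tested target genes 29 had a lower mean in HKO, with a median log2 fold change of -0.33, and 0 passed over all genes. Higher means were found in 6.45% of them, against 48.8% of all genes. At a mean of at least 5 FPKM 23 of 25 targets were lower, where 40.1% of all genes were higher. Without overlap, 8 of the 31 lay below and 0 above (25.8% against 13.3% of all genes). Aldh3a2, a fatty aldehyde dehydrogenase, stood at 92.2 ± 12.4 FPKM in Flox and 59.5 ± 7.71 FPKM in HKO. It did not pass (limma adjusted p = 0.580). Under TPM 24 of the 31 were lower with a median of -0.18, while the median of all genes was 0.15.

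The sterol and bile acid receptors held steady levels, apart from Nr0b2. Nr1h3 stood at 51.4, 54.5 and 45.0 FPKM in Flox 1 to 3 and at 50.8, 47.2 and 45.9 FPKM in HKO 1 to 3, the narrowest relative spread of the 32 tested members (coefficient of variation 7.44%). Its log2 fold change was -0.06 (SE 0.115). Nr1h3 is also a gene of Kupffer cells. It lay within the Flox range in HKO 1, the library with the highest macrophage markers, and their part in its level was not tested. Its paralog Nr1h2 (LXRbeta) stood at 12.0 ± 0.870 FPKM in Flox and 11.7 ± 1.20 FPKM in HKO. Nr1h4 stood at 46.2, 47.5 and 55.2 FPKM in Flox 1 to 3 and at 54.2, 39.8 and 50.6 FPKM in HKO 1 to 3, with a log2 fold change of -0.05 (SE 0.148). The direction of Nr1h2, Nr1h3 and Nr1h4 turned positive when libraries were scaled by assigned reads, by TPM or by quantiles.

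Nr0b2, the SHP gene that FXR turns on, varied 2.27-fold. It stood at 89.7, 107 and 48.8 FPKM in Flox 1 to 3 and at 47.2, 82.1 and 73.2 FPKM in HKO 1 to 3. Flox 3 and HKO 1 were low and Flox 2 high, so the spread ran within the groups (log2 fold change -0.24, SE 0.332, limma adjusted p = 0.835). Cyp7a1, the bile acid synthesis enzyme that SHP represses, stood at 8.11 ± 5.88 FPKM in Flox and 18.7 ± 12.3 FPKM in HKO, with overlapping groups (limma adjusted p = 0.708). Cyp8b1, another bile acid synthesis gene that SHP represses, stood at 141 ± 74.8 FPKM in Flox and 91.4 ± 8.74 FPKM in HKO (limma adjusted p = 0.710). Nr5a2 (LRH-1), an activator of bile acid synthesis genes, stood at 13.3, 12.1 and 11.9 FPKM in Flox 1 to 3 and at 11.9, 16.4 and 11.1 FPKM in HKO 1 to 3. HKO 2 was the highest, and the log2 fold change was 0.06 (SE 0.151). Of 14 tested FXR targets 8 were higher and 6 lower (median 0.05), and of 15 LXR targets 6 were higher and 9 lower (median -0.10). Under TPM the median of the LXR targets was 0.07, where that of all genes was 0.15. Lpcat3, a phospholipid-remodelling LXR target, stood at 32.6 ± 2.05 FPKM in Flox and 25.1 ± 3.67 FPKM in HKO without overlap, and did not pass (limma adjusted p = 0.648).

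The xenobiotic receptors had lower means in HKO that did not pass. Nr1i2 (PXR), which senses drugs and steroids, stood at 23.9, 27.0 and 21.5 FPKM in Flox 1 to 3 and at 21.5, 22.9 and 17.7 FPKM in HKO 1 to 3. The lowest library was HKO 3, and the groups overlapped (log2 fold change -0.21, SE 0.135, limma adjusted p = 0.697). Nr1i3 (CAR), the receptor behind induction by phenobarbital, stood at 4.01, 3.42 and 3.94 FPKM in Flox 1 to 3 and at 4.64, 2.77 and 2.51 FPKM in HKO 1 to 3. HKO 1 was the highest and the other HKO libraries the lowest. Without HKO 1 the log2 fold change of Nr1i3 was -0.40 (limma adjusted p = 0.403) against -0.18 with all libraries. Of the exon bases of Nr1i3, 74.9% overlap Tomm40l on the other strand, and the kit does not mark strand, so its level is uncertain. Of 22 tested PXR and CAR targets 14 were lower and 8 higher (median -0.18). Among them Gstm1, a glutathione transferase, stood at 708 ± 96.1 FPKM in Flox and 525 ± 43.6 FPKM in HKO (limma adjusted p = 0.648).

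The thyroid hormone receptors overlapped between the groups. Thrb, the main form in hepatocytes, stood at 4.68, 5.03 and 5.05 FPKM in Flox 1 to 3 and at 4.33, 6.46 and 4.32 FPKM in HKO 1 to 3. The HKO libraries lay on both sides of the Flox range (log2 fold change 0.01, SE 0.148). Thrb made up 59.9% to 69.9% of the summed FPKM of Thra and Thrb. The 3′ end of Thra overlaps the clock gene Nr1d1 on the other strand over 5.7% of its exon bases. Nr1d1 stood at a mean of 30.9 FPKM and Thra at 2.58 FPKM, and reads from the shared bases cannot be told apart without strand. Of 10 tested thyroid hormone targets 4 were higher and 6 lower (median -0.10). Under TPM their median was 0.07, where that of all genes was 0.15.

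The steroid hormone receptors showed no difference beyond their spread. Nr3c1, the glucocorticoid receptor gene, stood at 12.7, 11.5 and 13.6 FPKM in Flox 1 to 3 and at 10.7, 14.3 and 14.0 FPKM in HKO 1 to 3. The lowest and the highest library were both HKO (log2 fold change 0.04, SE 0.135). Nr3c2, the mineralocorticoid receptor gene, ranged from 1.61 to 3.54 FPKM, with both ends in HKO, and Esr1, the oestrogen receptor alpha gene, from 0.933 to 1.47 FPKM. Of 17 tested glucocorticoid targets 8 were higher and 9 lower (median -0.04). Their median was 0.13 under TPM and 0.11 under quantile normalization, where those of all genes were 0.15 and 0.013. Tsc22d3, which encodes the glucocorticoid-induced leucine zipper, stood at 16.3 ± 4.68 FPKM in Flox and 25.3 ± 3.73 FPKM in HKO without overlap, and did not pass (limma adjusted p = 0.648).

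Among the hepatocyte and orphan receptors, Hnf4a had a higher mean in HKO, with no overlap between the groups. Hnf4a (ENSMUSG00000017950, chromosome 2, 163506808 to 163572910 on the plus strand, GRCm38) stood at 103, 113 and 111 FPKM in Flox 1 to 3 and at 134, 121 and 117 FPKM in HKO 1 to 3. The gap between the highest Flox and the lowest HKO library was small, at 113 against 117 FPKM. The means were 109 ± 5.16 FPKM in Flox and 124 ± 8.61 FPKM in HKO (SD, n = 3), a log2 difference of 0.18 (SE 0.113, limma adjusted p = 0.697). Of 20 tested HNF4A targets 13 were lower and 7 higher (median -0.17). Under quantile normalization their median was 0.0052, where that of all genes was 0.013. Ttr, which carries thyroxine and retinol-binding protein in blood, stood at 5810 ± 710 FPKM in Flox and 4329 ± 167 FPKM in HKO, in the direction opposite to Hnf4a. It did not pass (limma adjusted p = 0.648). Apob, another target, went the same way as Hnf4a, at 405 ± 12.8 FPKM in Flox and 494 ± 65.7 FPKM in HKO (limma adjusted p = 0.676). Without overlap, 2 of the 20 targets lay above and 3 below (25% against 13.3% of all genes).

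In the other tested orphan receptors the groups overlapped. Nr2f6 (EAR2) stood at 31.4 ± 3.97 FPKM in Flox and 30.9 ± 3.07 FPKM in HKO, and 54.4% of its exon bases overlap Ocel1 on the other strand. Nr2f2 (COUP-TFII), known from vein endothelium and stromal cells, stood at 4.43 ± 0.534 FPKM in Flox and 4.96 ± 0.555 FPKM in HKO. Esrra, which drives genes of mitochondrial respiration, stood at 13.9 ± 1.35 FPKM in Flox and 12.4 ± 3.15 FPKM in HKO. Its deposited length is 2539 bases, against 4387 exon bases in GENCODE M21, so its level relative to other genes and its length class are uncertain. Without HKO 1 its log2 fold change was -0.36 (limma adjusted p = 0.456) against -0.18 with all libraries. Its groups then did not overlap, as in 31.3% of all genes in that setting. Of 12 tested targets of the Esrra protein, Esrra itself among them, 11 were lower (median -0.20), where 51.2% of all genes were lower. Under TPM their median was -0.03, where that of all genes was 0.15. Uqcrc1, a complex III subunit gene, stood at 76.5 ± 5.60 FPKM in Flox and 62.7 ± 1.78 FPKM in HKO (limma adjusted p = 0.648). Rora, Nr2c1 and Nr6a1 had log2 fold changes of 0.04, -0.09 and 0.02.

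Nr4a1 (NUR77), a ligand-independent receptor that many stimuli induce within minutes, varied more than any other tested member. It stood at 15.3, 15.7 and 3.85 FPKM in Flox 1 to 3 (825, 820 and 227 reads) and at 1.09, 7.02 and 4.52 FPKM in HKO 1 to 3 (68, 411 and 294 reads), a 14.4-fold range. Its coefficient of variation over the 6 libraries was 78.1%, higher than in 98.1% of all tested genes. Flox 1 and Flox 2 stood high, and Flox 3 lay below HKO 2 and HKO 3, so the groups overlapped. The means were 11.6 ± 6.74 FPKM in Flox and 4.21 ± 2.97 FPKM in HKO (SD, n = 3). The log2 fold change of -1.28 was the largest among the tested members, but its SE was 0.651 (limma adjusted p = 0.678). Without Flox 3 it was -1.87 and without HKO 1 it was -0.72. Its paralog Nr4a2 had 17, 28 and 16 reads in Flox 1 to 3 and 12, 9 and 18 reads in HKO 1 to 3.

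The promoters of these paralogs are shown because the pair is the stimulus-induced branch of the family and Nr4a1 had the widest fold range of the tested members. A promoter window is here 250 bases before to 50 bases after the start of a RefSeq gene (GRCm38.p6), and windows were found for 33 of the 38 members. The capitals mark TGACG, or CGTCA where it lies on the opposite strand, the core of the cyclic AMP response element to which CREB binds. The window of Nr4a1 is chr15:101266596-101266895 on the plus strand, and that of Nr4a2 is chr2:57123954-57124253 on the minus strand.
Nr4a1: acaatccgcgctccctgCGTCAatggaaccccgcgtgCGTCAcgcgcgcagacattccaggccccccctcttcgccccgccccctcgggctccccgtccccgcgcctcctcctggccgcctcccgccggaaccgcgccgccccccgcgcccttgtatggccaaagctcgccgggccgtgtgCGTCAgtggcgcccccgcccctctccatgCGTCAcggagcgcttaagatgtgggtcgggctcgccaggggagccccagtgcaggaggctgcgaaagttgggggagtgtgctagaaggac
Nr4a2: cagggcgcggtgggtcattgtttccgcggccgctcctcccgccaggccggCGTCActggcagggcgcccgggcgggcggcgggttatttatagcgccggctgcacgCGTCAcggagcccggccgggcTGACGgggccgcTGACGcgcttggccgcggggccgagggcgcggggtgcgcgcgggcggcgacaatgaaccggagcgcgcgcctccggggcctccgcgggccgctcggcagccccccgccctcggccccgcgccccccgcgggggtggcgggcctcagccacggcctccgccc
Both windows held 4 such cores. In Nr4a1 they begin 233, 213, 69 and 40 bases before the start, and in Nr4a2 200, 144, 123 and 111 bases before it. The window of Nr4a3, the third paralog, held 4 as well. At least 1 core was present in 20.8% of 32817 promoter windows of the genome build, and at least 4 in 0.232% (76 windows). The windows of Nr4a1 and Nr4a2 were 72.3% and 81.7% G or C, and that background was not matched for this. Of the 50 windows of the members 13 held at least 1 core. The full element TGACGTCA was absent from the windows of Nr4a1 and Nr4a2. These matches describe letters in the window and were not measured as binding sites.

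**Figure D3:**
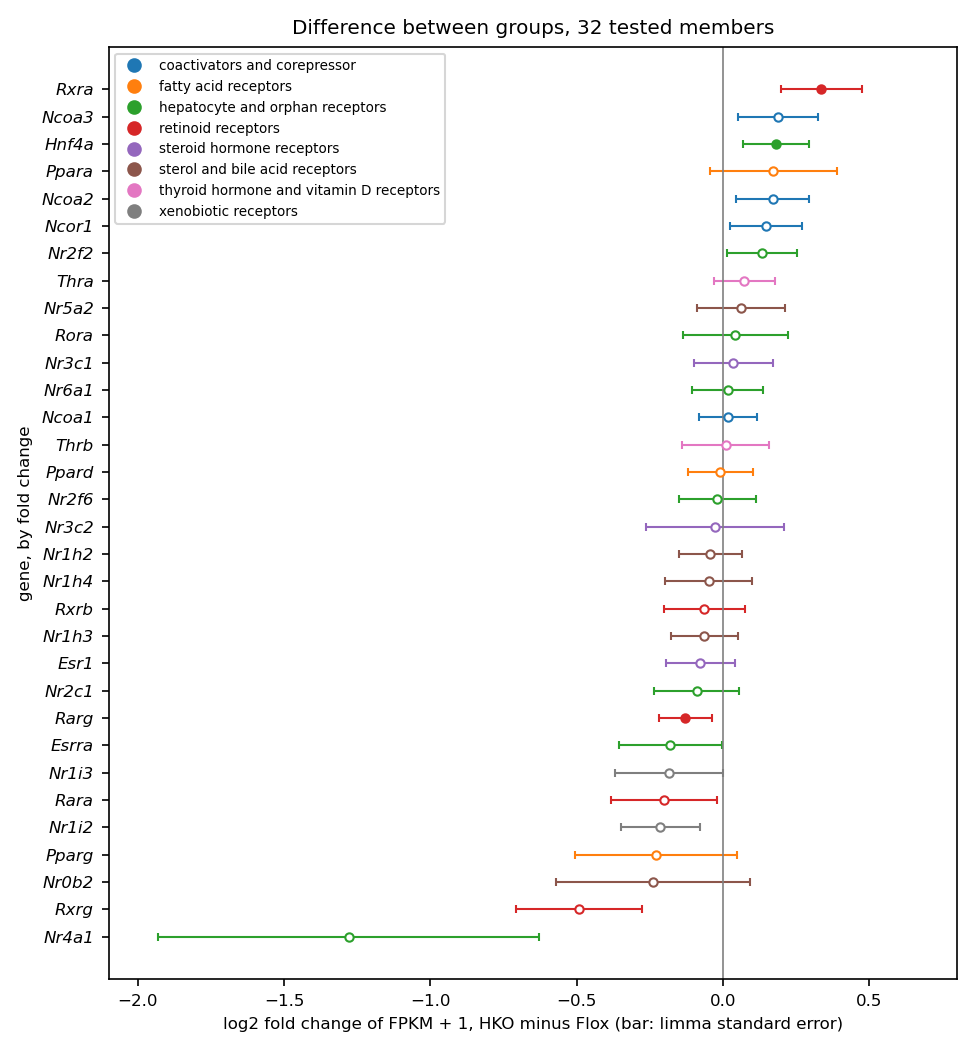
Log2 fold change of FPKM + 1, HKO minus Flox, for the 32 tested members, coloured by role, with the limma standard error. Filled points are members whose groups do not overlap (Rxra, Hnf4a and Rarg); Nr4a1 at -1.28 has the widest error.

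All 4 cofactor genes had higher means in HKO, by small amounts that did not pass. Without Flox 1, Flox 2 or HKO 3, 3 of the 4 means were higher. Ncor1, the corepressor that carries the histone deacetylase HDAC3 to unliganded receptors, stood at 6.12, 5.83 and 7.23 FPKM in Flox 1 to 3 and at 6.43, 8.28 and 6.88 FPKM in HKO 1 to 3. Flox 3 lay above HKO 1 and HKO 3, and the log2 fold change was 0.15 (SE 0.124, limma adjusted p = 0.748). The p160 coactivator genes Ncoa2 and Ncoa3 stood at 2.72 ± 0.467 and 2.50 ± 0.525 FPKM in Flox and at 3.18 ± 0.371 and 2.97 ± 0.376 FPKM in HKO. Ncoa1 stood at 2.36 ± 0.249 FPKM in Flox and 2.39 ± 0.154 FPKM in HKO. Each of the 3 p160 genes made up 26.6% to 38.6% of their summed FPKM in every library, with Ncoa2 the highest in all 6. Of 24 other tested cofactor genes 18 were higher and 6 lower (median log2 fold change 0.12), and 0 passed. The smallest p among these was that of Tob1, an antiproliferative protein gene, at 115 ± 18.5 FPKM in Flox and 69.3 ± 14.5 FPKM in HKO (limma adjusted p = 0.580). Kmt2d, a histone methyltransferase gene, stood at 1.80 ± 0.295 FPKM in Flox and 2.50 ± 0.436 FPKM in HKO (limma adjusted p = 0.648).

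**Figure D4:**
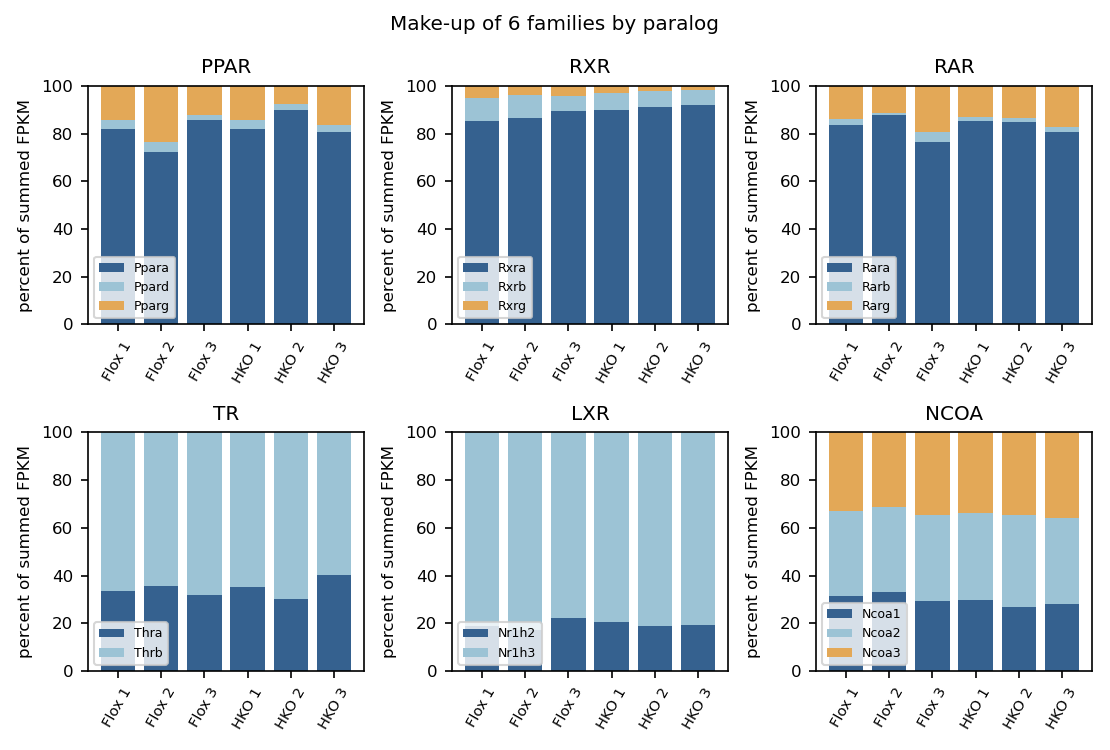
Share of each paralog in the summed FPKM of 6 families, per library: PPAR, retinoid X (RXR), retinoic acid (RAR), thyroid hormone (TR) and oxysterol (LXR) receptors and the p160 coactivators (NCOA). Rxra makes up 85.2% to 91.9% of its family. The share of Rxrg is smaller in the HKO libraries than in the Flox libraries, while its FPKM overlap between the groups.

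Longer members were more often higher in HKO, as were longer genes over the whole table. Over all tested genes 38.04% of those under 2 kb were higher in HKO (median log2 fold change -0.08), 39.7% of those of 2 to 4 kb (-0.04), 54.6% of those of 4 to 8 kb (0.01) and 72.4% of those of 8 kb or more (0.07). Among the members 1 of 11 of 2 to 4 kb, 7 of 13 of 4 to 8 kb and 6 of 7 of 8 kb or more were higher. Long genes were low in Flox 1, Flox 2 and HKO 1, with median centred log2 levels of -0.08, -0.08 and -0.04. They were high in Flox 3, HKO 2 and HKO 3, at 0.05, 0.10 and 0.05. Ncoa2 and Ncor1 are annotated with 15642 and 12811 bases, and Rxra with 5462. With the trend over length removed from each library, an alternative chosen after these values were seen, 3 of the 4 cofactor members and 16 of the 24 other cofactors were higher. Rxra stood at a log2 fold change of 0.32 in that setting (limma adjusted p = 0.595). Its groups still did not overlap.

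**Figure D5:**
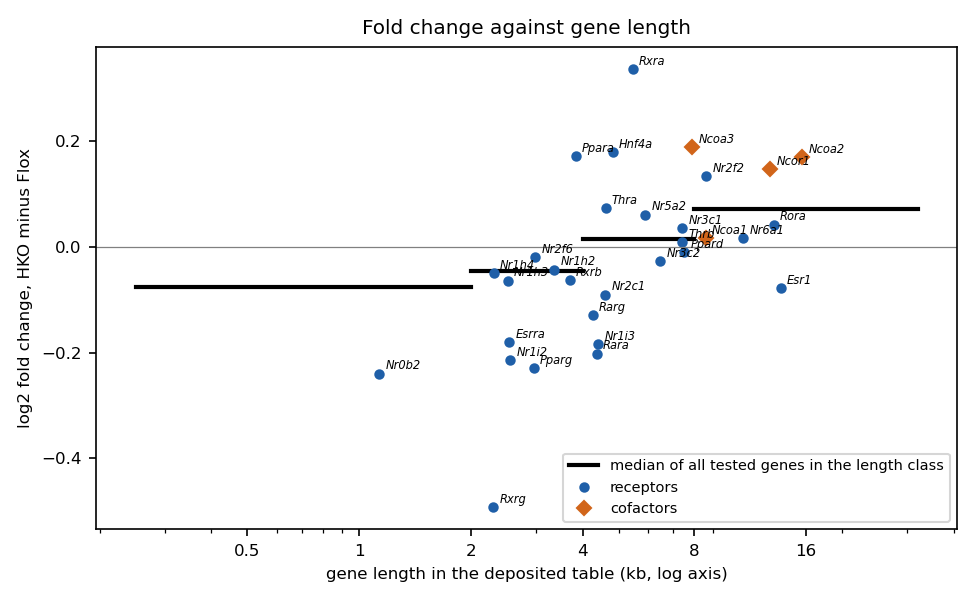
Log2 fold change, HKO minus Flox, against gene length in kb (log axis) for the tested members except Nr4a1 (-1.28, off the scale), with cofactors as diamonds. Black lines give the median of all tested genes in each length class, from -0.08 under 2 kb to 0.07 at 8 kb or more.

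Genes that make or clear ligands, and retinoic acid targets, showed no shared direction. Of 20 tested genes of ligand and hormone supply 9 were higher and 11 lower (median -0.06). Under TPM their median was 0.11, where that of all genes was 0.15. Of 9 tested retinoic acid targets 6 were higher and 3 lower (median 0.03).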

How the data were processed

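Liver RNA of 3 Flox and 3 HKO libraries was sequenced from NEBNext Ultra libraries, per the labels' protocols, a kit that does not mark strand. The authors deposited 1 table of FPKM values with gene lengths, 1 column per library. The submitters' processing notes name GRCm38 and mm10, while the sources used here name no aligner or counter. FPKM times gene length were whole multiples of 1 step in each library (100% of values within 0.02 reads), which gave reads. A level of 1 FPKM over 1 kb equalled 14.9 to 18.5 reads.

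The comparison used log2(FPKM + 1) in limma 3.58.1 under R 4.3.3 (trend, robust, statmod 1.5.0), two-sided, on the 11856 genes that reached 0.5 FPKM in 3 or more libraries, with Benjamini-Hochberg adjustment over all of them and a threshold of 0.05. The procedure was tested on simulated data. Fold changes are differences of log2(FPKM + 1), HKO minus Flox, and understate those of low genes. With 3 against 3 libraries an exact permutation p cannot go below 0.1. Members and lists were chosen with earlier results of these data known. Values in every library are given for members at an unadjusted p under 0.05 or without overlap and for 13 main liver receptors and cofactors, and Rxrg, Nr4a1, Pparg, Nr4a2, Vdr and Nr2c2 were added after their values were seen. Up to 4 genes with the smallest p could be named per list. Cfd, Adipoq, Cyp8b1, Egr1, Fos, Jun, Junb, Ier2, Dusp1 and Atf3 fall outside that rule. Exon overlaps come from GENCODE M21, and blastn 2.17.0 found 0 members with a transcript of another gene at 97% identity over 80% of the length. Some genes of the lists are counted but not reported by name here. Alternatives were a pseudocount of 0.1, no filter, a mean of at least 5 FPKM, TPM, quantile normalization, assigned reads, voom, a replicate block, leaving out each library, and removal of the length trend.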

Additional observations from a re-analysis of the deposited data

How the results depend on the processing

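In all 15 settings 0 members passed, also in limma's voom. Over all genes the count was 1 as reported, 0 without the filter and likewise with the replicate block, 2 at a mean of at least 5 FPKM and 3 in voom. With 1 library left out it was 0 to 13 (13 without HKO 1). The count of members at an unadjusted p under 0.05 was 2 without the filter, under TPM, under quantile normalization and in voom. The shares of all genes in these settings were 5.02%, 11.7%, 7.73% and 7.75%. The member count was 0 to 5 with 1 library left out. There were 5 without Flox 3 (15.3% of all genes) and 3 without HKO 1 (10.4% of all genes). Without Flox 1, Flox 2 or HKO 3 there were 0 (3.77%, 4.15% and 6.36% of all genes). Members without overlap numbered 1 when scaled by assigned reads (13.9% of all genes) and 3 to 12 with 1 library left out. Leaving out Flox 3 gave 12 (37.1% of all genes), HKO 1 gave 11 (31.3%) and HKO 2 gave 6 (19.2%). The median log2 fold change of members was 0.13 under TPM, where that of all genes was 0.15, and 0.029 scaled by assigned reads. It was -0.031 to 0.0050 with 1 library left out.

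Of the 32 members 17 kept their sign in every setting that tested them (16 of the 32 were tested at a mean of at least 5 FPKM). Under TPM the fold changes of Nr1h3, Nr1h4, Nr2f6, Nr1h2, Rxrb, Nr2c1, Nr3c2, Esr1 and Ppard turned to 0.11, 0.13, 0.16, 0.13, 0.10, 0.047, 0.11, 0.026 and 0.11. Scaled by assigned reads, Nr1h3, Nr1h4, Nr2f6, Nr1h2, Rxrb, Nr3c2 and Ppard turned to 0.014, 0.028, 0.058, 0.030, 0.0073, 0.026 and 0.028. Under quantile normalization Nr1h3, Nr1h4, Nr2f6 and Nr1h2 turned to 0.063, 0.059, 0.074 and 0.0020. With the length trend removed Nr1h4, Nr2f6, Nr3c1, Thrb, Rora, Ncoa1 and Nr6a1 turned to 0.0084, 0.021, -0.0037, -0.030, -0.041, -0.034 and -0.051. With 1 library left out the ranges were -0.14 to 0.081 (Nr1h4), -0.11 to 0.069 (Nr2f6), -0.033 to 0.16 (Nr3c1), -0.098 to 0.17 (Nr5a2), -0.12 to 0.0092 (Nr1h2), -0.15 to 0.091 (Thrb), -0.15 to 0.21 (Rora), -0.19 to 0.063 (Nr2c1), -0.23 to 0.17 (Nr3c2), -0.025 to 0.076 (Ncoa1), -0.069 to 0.077 (Ppard) and -0.097 to 0.075 (Nr6a1). The cause was not tested. With the replicate block, 1 member (Rxrg in place of Rxra) was at an unadjusted p under 0.05, as were 6.61% of all genes. Libraries of the same number correlated at 0.021, 0.015 and 0.070 in their deviations from group means, so the numbers were not taken as pairs.

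At 0 reads the limit is 3 reads per library, for counting error only.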

Other observations

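Nr4a1 belongs to the immediate-early genes, and other genes of that class were looked up after its values were seen. Egr1 stood at 3.56, 7.30 and 14.2 FPKM in Flox 1 to 3 and at 11.2, 44.6 and 8.58 FPKM in HKO 1 to 3. Fos stood at 3.40, 5.87 and 8.20 FPKM in Flox 1 to 3 and at 2.97, 11.8 and 8.42 FPKM in HKO 1 to 3. Both were highest in HKO 2, as were Jun (50.4 FPKM, others 12.6 to 39.6) and Ier2 (54.2 FPKM, others 20.9 to 38.1), while Nr4a1 was highest in Flox 2. Junb was highest in Flox 2 as well (61.2 FPKM) but lowest in HKO 3 (19.2 FPKM). Atf3 stood at 2.45, 3.53 and 1.91 FPKM in Flox 1 to 3 and at 0.968, 1.64 and 1.50 FPKM in HKO 1 to 3. Like Nr4a1 it was highest in Flox 2 and lowest in HKO 1, and it did not pass (limma adjusted p = 0.648). Dusp1, a phosphatase gene from the glucocorticoid target list, stood at 80.4, 76.3 and 29.6 FPKM in Flox 1 to 3 and at 22.1, 49.2 and 49.0 FPKM in HKO 1 to 3. It was high in Flox 1 and Flox 2 and low in Flox 3 and HKO 1, as Nr4a1 was, and did not pass (limma adjusted p = 0.744).

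Nr2c2 (TR4), below the filter, had 62, 46 and 117 reads in Flox 1 to 3 and 130, 207 and 153 reads in HKO 1 to 3. Its levels of 0.270, 0.207 and 0.466 FPKM in Flox 1 to 3 lay below 0.491, 0.830 and 0.553 FPKM in HKO 1 to 3. Nr2c2 was picked after its values were seen, and without the filter 9.84% of all genes did not overlap. It is annotated with 14935 bases, and 72.4% of all tested genes of 8 kb or more were higher in HKO. Of its exon bases 30.7% overlap Mrps25 on the other strand.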
